A study of Drosophila melanogaster with 6 samples.

Results

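The early response of S2-DRSC cells to JQ1 was compared with solvent in 5 of the 6 RNA-seq libraries of the series. S2-DRSC is a cultured Drosophila melanogaster line with features of embryonic blood cells. The treated group held 3 libraries, from cells given 10 µM JQ1 for 1, 2 or 4 h. The control group held 2 libraries, from cells given the solvent DMSO for 1 or 20 h. The JQ1 library of 20 h was left out of this comparison. Each condition was a single library of polyadenylated RNA from the same line, so the treated group pools 3 durations and its spread includes change with time. The labels do not say whether the cultures were separate, and p-values therefore measure only the spread between these libraries.

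BET proteins bind acetylated histone tails through paired bromodomains and help RNA polymerase II to pass from initiation into elongation, in part through the kinase complex P-TEFb. JQ1 occupies the acetyl-lysine pocket of these bromodomains and releases the proteins from chromatin. In the fly the family has a single member, FSH, which is encoded by fs(1)h. In mammalian cells BET inhibitors are known for lowering cell cycle genes and for raising HEXIM1, which encodes an inhibitor of P-TEFb. The comparison addresses which groups of genes responded within the first hours.

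The libraries held between 24547077 and 29823608 reads assigned to genes, and 8693 genes averaging 10 scaled counts or more were tested. RNA-seq gives shares of a library, so a direction needs a reference. Values on the index scale were divided by a factor set by the 100 genes most abundant in DMSO, which include 49 cytoplasmic ribosomal protein genes. These 100 genes took 28.5% and 29.0% of gene reads in DMSO and 34.1%, 35.1% and 36.3% after 1, 2 and 4 h of JQ1. Values on the all-gene scale were divided by the median ratio over all genes, which sets the typical gene near 0. The index scale lay 0.65 log2 units below the all-gene scale, and no external standard was used, so amounts of RNA per cell are not known. In bulk RNA, a lower level in every cell and fewer cells with the transcript cannot be told apart. All 8 blood cell markers were read, with summed scaled counts of 620216 and 633047 in DMSO and between 591637 and 775929 in JQ1. Single members differed. Pxn, NimC1, eater and Sr-CI were lower in every JQ1 library than in either DMSO library, Col4a1 was higher, and Hml, srp and vkg overlapped DMSO. Summed markers of crystal cells were 784.5 and 941.6 in DMSO and between 902.7 and 1115 in JQ1. Those of germ line were 46.7 and 53.3 in DMSO and between 38.7 and 74.9 in JQ1. Summed markers of fat body lay between 4.6 and 13.4, and those of muscle were 82.3 and 93.6 in DMSO and between 39.8 and 70.4 in JQ1. Those of neurons were 646.5 and 664.6 in DMSO and between 276.9 and 378.3 in JQ1, of which the single gene elav gave 580.8 and 573.6 in DMSO and between 231.9 and 328.2 in JQ1. The neuronal genes nSyb and Syt1 stayed at or under 15.7 scaled counts in every library. The part of these shifts in the results was not tested.

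On the index scale 5615 genes were lower after early JQ1 (64.6% of those tested) and 215 were higher (2.47%), at an adjusted p under 0.05 in edgeR's quasi-likelihood test. The all-gene scale gave 1580 lower (18.2%) and 1560 higher (17.9%). Lower genes thus made up 96.3% of calls on the first scale and 50.3% on the second. The calls were nested. Of the 8667 genes tested under both scalings, each of the 1580 lower genes of the all-gene scale was also lower on the index scale, and each of the 215 higher genes of the index scale was also higher on the all-gene scale. A further 3710 genes were lower on the index scale alone, 1021 were higher on the all-gene scale alone, and 312 were lower on the former and higher on the latter. The remaining 1829 genes were called under neither. The 1580 genes lower under both scalings had a median log2 fold change of -1.52 on the index scale and -0.89 on the all-gene scale, and the 215 genes higher under both had medians of 1.11 and 1.77. In every called gene the 3 JQ1 libraries lay on 1 side of both DMSO libraries, which was also so in many uncalled genes, since over all tested genes 6915 lay lower and 458 higher without overlap on the index scale, and 3062 and 2830 on the all-gene scale. As background, 323 genes (3.72%) differed beyond 1.5-fold between the DMSO libraries on the index scale.

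Single libraries weighed on these counts. On the all-gene scale edgeR called 0 genes in either direction without the DMSO 1 h library, without the DMSO 20 h library or without the JQ1 2 h library, although 1229, 1257 and 1519 lower and 1194, 1201 and 1531 higher genes then had an unadjusted p under 0.05. DESeq2 called 492, 506 and 940 lower and 510, 442 and 827 higher genes in the same 3 sets of libraries. On the index scale edgeR called 3284 lower and 66 higher genes without DMSO 1 h, 2587 and 56 without DMSO 20 h, 3774 and 107 without JQ1 2 h, and 6079 and 386 without JQ1 1 h. Each count of all-gene calls below rests on all 5 libraries.

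**Figure D1:**
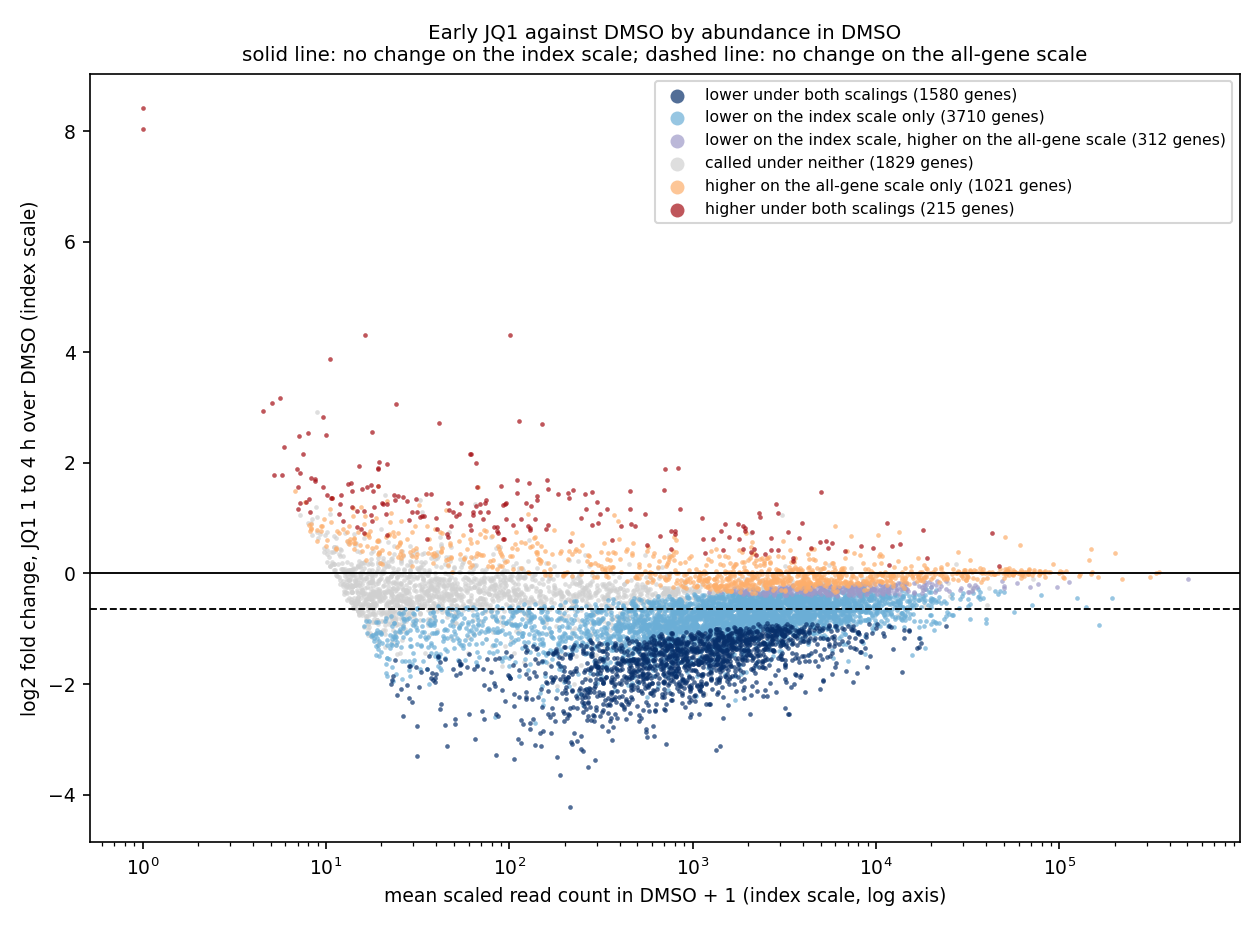
Log2 fold change of early JQ1 over DMSO on the index scale (vertical axis) against the mean scaled read count in DMSO plus 1 (log axis), 1 point per gene tested under both scalings. The 215 genes higher under both scalings (red) lie mostly at low abundance, the 1580 genes lower under both (dark blue) in the middle of the range, and the genes above the dashed line of no change on the all-gene scale but near the solid line of no change on the index scale (orange) are most frequent at high abundance.

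Abundance in DMSO differed between the classes. Genes lower under both scalings had a median of 956 scaled counts in DMSO, near the 1070 of all tested genes. Genes higher under both had 84.7, and genes lower on the index scale but higher on the all-gene scale had 6130. Genes called under neither had 66.3, so a low level was not particular to the higher genes. In 5 bins of equal size, ordered from low to high DMSO level, 4.38%, 29.3%, 30.9%, 19.6% and 7.04% of genes were lower on the all-gene scale, and 16.4%, 8.54%, 9.12%, 17.4% and 37.9% were higher. The DMSO level also enters the fold change, so these shares are a description. Genes of the X chromosome made up 17.3% of annotated tested genes, 12.1% of those lower under both scalings and 25.0% of those higher under both. Genes with 10 or more exon blocks were 11.3% of all and 7.62% of those lower under both. Their median DMSO level was 2711 scaled counts, against 465.3 for genes of 1 block. Within bins 1 and 2, genes of 5 or more blocks were less often lower on the all-gene scale than those of 1 or 2 (2.95% against 6.22%, 20.5% against 34.2%). In bins 3, 4 and 5 they were more often lower (37.9% against 25.7%, 21.8% against 17.2%, 8.85% against 1.67%).

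Among genes called under both scalings and averaging 50 scaled counts or more, the 8 with the lowest index log2 fold change were CG13088, CG11257, CG4424, CG17568, CG6345, CG4497, e and CG7785. CG13088 (FBgn0032047, chromosome 2L) had 201.4 and 223.7 scaled counts in DMSO 1 h and 20 h, and 17.6, 8.49 and 7.40 after 1, 2 and 4 h of JQ1. All 3 treated libraries were far below both controls, and most of the loss was present at 1 h. Its log2 fold change was -4.23 ± 0.35 (SE, 3 against 2 libraries) on the index scale and -3.60 ± 0.31 on the all-gene scale. CG11257 (FBgn0034442) went from 196.95 and 180.78 to 16.72, 14.44 and 13.87 scaled counts, a level reached within the first hour. CG4424 (FBgn0038765) had 273.73 and 258.81 in DMSO and 23.75, 18.69 and 27.74 in JQ1, likewise with no overlap. CG17568 (FBgn0032763) had 303.77 and 279.62 in DMSO and 30.79, 29.73 and 23.12 in JQ1. The most abundant of the 8 was e (FBgn0000527), or ebony, which encodes a synthase that couples beta-alanine to amines in pigmentation. It had 1379 and 1293 scaled counts in DMSO and 215.6, 132.5 and 87.8 in JQ1, so that it was lower at each later time, with a log2 fold change of -3.20 ± 0.36 (index) and -2.58 ± 0.29 (all-gene). CG6345, CG4497 and CG7785 had log2 fold changes of -3.32, -3.21 and -3.18 on the index scale. The index call of these 8 genes held without any 1 of the 5 libraries.

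The 8 with the highest index log2 fold change were CG4733, side-V, CG15482, CG31183, CG9008, CG31145, CG6847 and mspo. All 8 were scarce in DMSO, which the way of choosing them favours. The naming filter was on the mean over DMSO and JQ1 libraries together. side-V, CG15482, CG31183, CG31145 and mspo had DMSO means between 9.47 and 40.2 scaled counts, and passed it only through the JQ1 libraries. Ranking by fold change also favours a low DMSO level, so this scarcity is not shown to be a trait of raised genes. CG4733 (FBgn0038744) had 93.5 and 105.4 scaled counts in DMSO 1 h and 20 h and 1214, 2176 and 2530 after 1, 2 and 4 h of JQ1. It was the gene with the highest treated level among the 8, and its log2 fold change was 4.31 ± 0.39 (index) and 4.99 ± 0.45 (all-gene). side-V (FBgn0085400), a member of the Sidestep family of immunoglobulin cell surface proteins, had 11.1 and 19.5 in DMSO and 110.9, 357.6 and 439.2 in JQ1. CG15482 (FBgn0032483) had 11.1 and 7.80 in DMSO and 124.1, 147.0 and 158.1 in JQ1. CG9008 (FBgn0028540) had 105.7 and 117.1 in DMSO and 354.6, 756.8 and 1150 in JQ1. Of these, CG15482 was near its highest level by 1 h, whereas CG9008 was higher at each later time. mspo (FBgn0020269), which encodes the secreted matrix protein M-spondin, had 15.6 and 18.2 in DMSO and 43.1, 96.0 and 161.8 in JQ1. CG31145 and mspo were not called on the index scale without either DMSO library (adjusted p between 0.0780 and 0.145 in edgeR), nor was CG31145 without JQ1 2 h (0.0841). The other 6 remained called without any 1 library. Outside the naming rule, and chosen after their values were seen, sns and CG16820 had 0 reads in both DMSO libraries. sns, which encodes an immunoglobulin adhesion protein of myoblast fusion, had 10, 29 and 70 reads after 1, 2 and 4 h of JQ1, and CG16820 had 23, 44 and 74. With 0 control reads, both passed the filter of 10 scaled counts only through the JQ1 libraries. Their JQ1 means on the index scale were 32.7 (SD 28.8) for sns and 42.0 (SD 24.4) for CG16820. Against a floor of 3 reads over the control pair, these means were at least 18.2-fold and 23.4-fold higher. The single libraries varied widely around them, and the 1 h libraries lay well below.

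**Figure D2:**
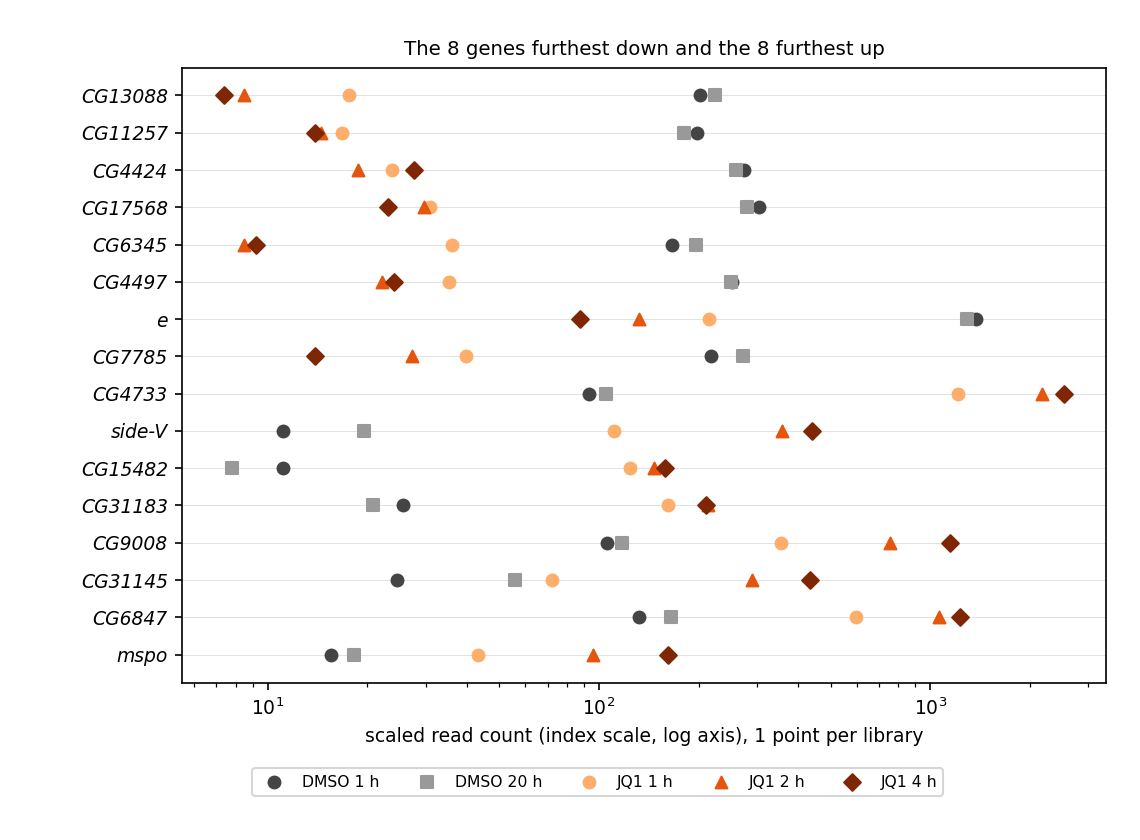
Scaled read counts on the index scale (log axis) of the 8 genes furthest down (CG13088 to CG7785) and the 8 furthest up (CG4733 to mspo), 1 point per library. In each gene the 3 JQ1 points (orange to brown) lie apart from both DMSO points (grey), and in e the points move further from DMSO from 1 h (215.6) to 4 h (87.8).

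The gene of the drug target was lower only relative to the index. fs(1)h had 13072 and 13610 scaled counts in DMSO and 8420, 9448 and 9103 in JQ1, with all treated libraries below both controls. It fell by 0.57 ± 0.07 log2 units on the index scale (adjusted p = 0.00178, edgeR), while on the all-gene scale its log2 fold change was 0.08 ± 0.12 (adjusted p = 0.601). The genes of the P-TEFb kinase Cdk9, its cyclin CycT and its inhibitor Hexim were lower on the index scale by the same test, with log2 fold changes of -0.59, -0.91 and -0.68, and were not called on the all-gene scale (0.07, -0.25 and -0.04). Hexim was not called on the index scale without DMSO 1 h or DMSO 20 h (edgeR, adjusted p = 0.0728 and 0.0845). Larp7, a protein of the 7SK particle that holds P-TEFb inactive, was lower under both scalings, from 553.0 and 633.4 in DMSO to 242.8, 192.0 and 212.7 in JQ1. ash1 and trx encode histone methyltransferases of the Trithorax group. They had log2 fold changes of -0.78 and -0.49 on the index scale and -0.13 and 0.16 on the all-gene scale, where neither was called. Within JQ1, fs(1)h, ash1 and trx rose on the all-gene scale by 0.18, 0.14 and 0.20 log2 units per doubling of time (adjusted p = 0.00703, 0.0440 and 0.0218, edgeR). For fs(1)h the all-gene values were -0.13, 0.14 and 0.23 at 1, 2 and 4 h, each from 1 library. For trx the index call was also lost without DMSO 20 h (edgeR, adjusted p = 0.0611).

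Most genes of the transcription apparatus were lower on the index scale. Of 108 tested genes in 5 lists, 98 were lower (90.7%, against 64.6% of all tested genes) and 2 higher on the index scale, and 25 were lower (23.1%, near the 18.2% of all genes) and 10 higher (9.26%, against 17.9%) on the all-gene scale. Of 27 Mediator subunit genes, 25 were lower on the index scale (92.6%) and 7 on the all-gene scale (25.9%). The pair that forms the Mediator kinase, Cdk8 and CycC, was among the 7, with all-gene log2 fold changes of -1.94 and -1.05. Cdk8 had 303.8 and 275.7 scaled counts in DMSO and 63.3, 35.7 and 46.2 in JQ1, without overlap. MED14, the backbone subunit of Mediator, had 3830 and 3993 in DMSO and 1249, 823.1 and 1200 in JQ1. Of 30 genes for basal factors, 9 were lower and 6 higher on the all-gene scale. Those lower included the TFIID subunits Taf8 and Taf11 (-0.81 and -0.92) and hay, the TFIIH helicase (-0.62), and those higher included both TFIIA genes, TfIIA-L and TfIIA-S (0.51 and 0.31). Among 26 RNA polymerase subunit genes 8 were lower and 2 higher on that scale. Split by gene name after the values were seen, the lower ones were 5 of 7 named for polymerase I, 3 of 9 for polymerase III and 0 of 10 for polymerase II. A name does not show whether a subunit is shared between the enzymes. Polr2A, the largest polymerase II subunit, had a log2 fold change of -0.24 on the index scale and 0.41 on the all-gene scale, and was called under both in opposite directions. Of 20 elongation factor genes, 18 were lower on the index scale and 0 on the all-gene scale. IntS6, a subunit of the Integrator complex, was the sole gene of that list higher under both scalings, from 2913 and 2895 in DMSO to 5836, 6647 and 6141 in JQ1, a log2 fold change of 1.10 ± 0.08 (index) and 1.75 ± 0.13 (all-gene).

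Of 111 chromatin regulator genes 101 were lower (91.0%, against 64.6% of all tested genes) and 1 higher on the index scale, and 33 were lower (29.7%, against 18.2%) and 6 higher (5.41%, against 17.9%) on the all-gene scale. Of 16 Polycomb group genes, which encode repressors of developmental loci, 8 were lower under both scalings. They were Psc, E(z), jing, esc, escl, Sfmbt, phol and Su(z)12. Psc, a core subunit of the complex PRC1, had 1557 and 1635 scaled counts in DMSO and 524.4, 605.6 and 465.1 in JQ1. E(z), the histone H3 methyltransferase of PRC2, went from 2975 and 3080 to 1316, 950.5 and 993.1. ph-d was instead higher under both, from 782.2 and 811.6 to 1230, 1483 and 1208, and lost its index call without either DMSO library (adjusted p = 0.0611 and 0.0585). ph-d and its tandem copy ph-p are near-identical, so unique reads may be split unevenly between them. In contrast to Polycomb, 13 of 13 Trithorax and COMPASS genes were lower on the index scale but only Mnn1, the fly menin gene, on the all-gene scale (1724 and 1788 in DMSO against 662.5, 600.5 and 568.7 in JQ1). That difference between the lists was not tested.

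Among 25 genes of acetyltransferases and deacetylases 8 were lower and 0 higher on the all-gene scale, against 18.2% lower and 17.9% higher over all genes. Of the 5 sirtuin genes, a split made after the values were seen, Sirt7, Sirt6, Sirt4 and Sirt2 were lower under both scalings. Sirt7 had 330.5 and 372.0 scaled counts in DMSO and 55.4, 44.2 and 65.7 in JQ1, and its log2 fold change was -2.67 ± 0.22 (index) and -2.02 ± 0.25 (all-gene). Gcn5, the acetyltransferase of SAGA, went from 2650 and 2706 to 1177, 831.6 and 731.4. Of 20 insulator and cohesin genes 7 were lower on the all-gene scale, among them CTCF (1818 and 1983 in DMSO, 610.6, 431.5 and 476.2 in JQ1), Chro and Cp190. The cohesin ring genes SMC1, SMC3 and vtd were not called on that scale, at 0.01, -0.15 and 0.42. In the remodeller list E(bx), which encodes the bromodomain subunit of NURF, and polybromo were lower under both scalings, at -0.60 and -0.39 on the all-gene scale. Lhr and Hmr, whose products bind pericentric heterochromatin as partners, were also lower under both (-0.97 and -0.90). In the dosage compensation list msl-3 and mof, which belong to the male X chromosome complex, were lower under both (-1.30 and -0.63), while lncRNA:roX2, an RNA of the same complex, was higher on the all-gene scale and uncalled on the index scale.

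Cell cycle genes, grouped with a list of 13 apoptosis genes, had the lowest median all-gene log2 fold change of the gene families examined, at -0.59. Of 81 tested genes in the 4 lists of this family, 77 were lower (95.1%, against 64.6% of all genes) and 0 higher on the index scale. On the all-gene scale 44 were lower (54.3%, against 18.2%) and 1, of the apoptosis list, was higher. The median log2 fold change on the all-gene scale was -0.74 over 13 genes of G1 to S control, -0.74 over 26 genes of DNA replication and -0.57 over 29 genes of mitosis, against -0.02 over all tested genes. The members of these 3 lists were lower on the index scale in 13 of 13, 26 of 26 and 29 of 29 cases. stg, the Cdc25 phosphatase that triggers entry into mitosis, had 3328 and 3388 scaled counts in DMSO and 651.9, 620.1 and 448.5 in JQ1. Its loss was large at 1 h, and its log2 fold change was -2.55 ± 0.17 (index) and -1.91 ± 0.12 (all-gene). Cdk2, the kinase of S phase entry, went from 1136 and 1152 to 286.8, 247.2 and 213.6. Its cyclin CycE went from 2280 and 2056 to 1081, 918.2 and 528.0, and its inhibitor dap from 2166 and 2290 to 661.6, 506.3 and 367.1, so both a driver and a brake of the cycle were lower. By contrast E2f1, the activator of S phase genes, and CycD were called on the index scale alone (-0.68 and -0.62, against -0.04 and 0.03 on the all-gene scale).

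Replication genes lower under both scalings numbered 13 of 26 and covered origin recognition, the helicase and the polymerases. PolA2, a subunit of the primase complex, had 1616 and 1506 scaled counts in DMSO and 466.3, 267.6 and 168.3 in JQ1. Mcm2 and Mcm5, subunits of the replicative helicase, went from 4569 and 4781 to 1906, 1415 and 1371, and from 3684 and 4036 to 1524, 953.9 and 696.3. PCNA, the sliding clamp, had a log2 fold change of -1.10 on the index scale and -0.47 on the all-gene scale, where it was not called. Of 29 mitosis genes 19 were lower under both scalings. They included aurA, the centrosomal kinase (1311 and 1475 in DMSO, 454.0, 348.3 and 305.1 in JQ1), CycB (9008 and 9619 against 4028, 3184 and 2688) and the pair cid and cal1, the centromeric histone and its loading factor (-1.24 and -1.01 on the all-gene scale). Cdk1 and CycA were lower on the index scale alone (-0.81 and -0.75). In the apoptosis list 4 of 13 genes were lower under both scalings, namely the pro-death genes rpr and hid and the caspase genes Drice and Strica, and the caspase gene Dcp-1 was higher on the all-gene scale (0.70) but not called on the index scale (0.04).

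Of 72 cytoplasmic ribosomal protein genes 71 were higher on the all-gene scale (98.6%, against 17.9% of all tested genes), but on the index scale 1 was higher and 0 were lower, with medians of 0.67 and 0.02. As 49 of the 100 index genes belong to this family, its level on the index scale is close to 0 by construction. RpL3 had 104991 and 105276 scaled counts in DMSO and 101107, 101045 and 100090 in JQ1 on the index scale. The index call was RpL39, at 0.14 ± 0.04 log2 units (adjusted p = 0.0312, edgeR), and it was lost without either DMSO library, without JQ1 1 h (adjusted p between 0.0679 and 0.151) and in DESeq2 (0.0711). Of the 70 mitochondrial ribosomal protein genes 50 were lower (71.4%, near the 64.6% of all genes) and 0 higher on the index scale, with a median of -0.81. On the all-gene scale mRpL10 and mRpL37 were lower (2.86%, against 18.2% of all genes) and 3 were higher (4.29%, against 17.9%), with a median of -0.18. mRpL10 had 752.2 and 708.8 scaled counts in DMSO and 366.0, 213.2 and 197.0 in JQ1.

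Aminoacyl tRNA synthetases charge tRNAs with amino acids. Of 31 genes 10 were lower on the all-gene scale (32.3%, against 18.2% of all genes), and all 10 encode the mitochondrial enzyme of their kind by name. Divided in this way after the values were seen, the 14 mitochondrial genes had a median all-gene log2 fold change of -1.21 and the 17 cytoplasmic genes 0.18, with 0 lower and 2 higher among the latter. On the index scale the medians were -1.84 and -0.47. ValRS-m had 446.2 and 420.1 scaled counts in DMSO and 110.9, 73.1 and 79.5 in JQ1, and IleRS-m had 662.1 and 736.1 against 241.9, 86.6 and 56.4. The remaining 4 mitochondrial genes were not called on the all-gene scale, and the highest value among the 14 was that of AspRS-m, at -0.03 on the all-gene scale and -0.68 on the index scale. Of 34 translation initiation factor genes 20 were higher (58.8%, against 17.9% of all genes) and 1 (eIF2D) lower on the all-gene scale. On the index scale 18 were lower (52.9%, against 64.6% of all genes) and 0 higher. The 13 genes of the scaffold factor eIF3 had 11 of these higher calls, and the 5 genes of the exchange factor eIF2B had none, with medians of 0.47 and -0.28 on the all-gene scale.

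Of 67 nuclear genes for oxidative phosphorylation 46 were higher (68.7%, against 17.9% of all genes) and 1 lower on the all-gene scale, and 17 were lower (25.4%, against 64.6%) and 0 higher on the index scale, with medians of 0.45 and -0.20. The lower gene was COX5BL, a variant subunit gene at 46.7 and 58.5 scaled counts in DMSO and 17.6, 15.3 and 17.6 in JQ1. Of 8 genes of the mitochondrial genome 7 were higher on the all-gene scale and none was called on the index scale, where mt:CoI had 24230 and 27664 scaled counts in DMSO and 24456, 27684 and 25177 in JQ1. The proteasome list gave 20 of 34 genes higher on the all-gene scale (58.8%, against 17.9% of all genes) and 20 of 34 lower on the index scale (58.8%, against 64.6%). Its 1 gene lower under both was Rpt6R, a paralogue of the ATPase subunit Rpt6, which lost its index call without DMSO 1 h, DMSO 20 h or JQ1 2 h (adjusted p between 0.0552 and 0.0733). The vacuolar ATPase, glycolysis and ER chaperone lists likewise changed sign with the scaling, with medians of 0.49, 0.39 and 0.31 on the all-gene scale and -0.15, -0.24 and -0.34 on the index scale.

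On the index scale 1.95% of energy and metabolism genes and 2.31% of protein turnover genes were higher, near the 2.47% of all tested genes. Of 6 inducible heat shock protein genes, which belong to the protein turnover family, 2 were higher under both scalings. The small heat shock protein gene Hsp26 had 706.6 and 690.6 scaled counts in DMSO and 1138, 2153 and 2653 in JQ1, and Hsp23 had 307.1 and 313.4 against 424.9, 667.7 and 858.1. Both were higher at each later time. Hsp68, an inducible Hsp70 relative, was lower under both, from 902.4 and 875.3 to 367.8, 344.9 and 260.8. FASN2, a fatty acid synthase gene, went from 66.8 and 65.0 to 106.5, 195.4 and 286.7, and Paics, an enzyme gene of purine synthesis, from 13315 and 13597 to 16068, 20030 and 22212. AcCoAS, which makes acetyl-CoA from acetate, was lower under both (6777 and 6867 against 2631, 1765 and 1607). The detoxification genes Cyp4d20, Cyp6g2 and GstE12 had index log2 fold changes of -2.93, 1.08 and 0.61, and all 3 were called under both scalings. The index calls of Hsp26, FASN2, Paics, Cyp6g2 and GstE12 were lost without either DMSO library (adjusted p between 0.0576 and 0.161), and all of these but Cyp6g2 also without JQ1 2 h (between 0.0534 and 0.0804).

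Of 144 genes of signaling and immunity in 12 lists, 92 were lower on the index scale, the share of all tested genes (63.9% against 64.6%), and 9 were higher (6.25% against 2.47%). On the all-gene scale 15 were lower (10.4% against 18.2%) and 37 higher (25.7% against 17.9%). In the BMP pathway the receptor gene tkv (1617 and 1621 scaled counts in DMSO, 918.5, 654.1 and 594.6 in JQ1) and its transcription factor Mad (2271 and 2331, against 995.9, 844.3 and 780.4) were lower under both scalings, while wit, another receptor gene, was higher under both at low counts (8.90 and 13.0, against 21.1, 28.0 and 28.7). In the Wnt pathway Apc2, of the destruction complex, was lower under both (923.6 and 1017 against 292.1, 211.5 and 193.3), and nkd, a feedback inhibitor gene, was higher under both at between 6.50 and 31.4 scaled counts. In the Notch pathway the DNA-binding effector Su(H) went from 923.6 and 935.1 to 294.7, 301.6 and 338.4. Its coactivator mam went from 5142 and 5760 to 5939, 8564 and 7867, a higher call that on the index scale was lost without DMSO 1 h, DMSO 20 h, JQ1 2 h or JQ1 4 h (adjusted p between 0.0654 and 0.214).

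Immune pathways held calls in both directions. Myd88, an adaptor of Toll, was lower under both scalings (1926 and 2009 in DMSO, 810.3, 743.3 and 760.1 in JQ1), and Dif, a transcription factor of the pathway, was higher under both (2934 and 2924 against 3531, 4315 and 3996). PGRP-LF, which dampens Imd signaling, went from 446.2 and 469.5 to 685.4, 893.6 and 968.1. Stat92E, the transcription factor of JAK-STAT, was lower under both (24118 and 24064 against 14213, 12039 and 11265), and et, an antagonist receptor of that pathway, was higher under both (6770 and 6801 against 7632, 8868 and 10569). The index calls of Dif, PGRP-LF and et were lost without either DMSO library (adjusted p between 0.0679 and 0.151), and those of Dif and et also without JQ1 2 h (0.0534 and 0.0988). Of the growth regulators, Tsc1, Raf and the Hippo pathway genes sav and mats were lower under both scalings (all-gene log2 fold changes of -0.54, -0.42, -0.80 and -0.74), and Sesn, an inhibitor of TOR signaling, was higher under both (1689 and 2151 against 3091, 4046 and 3015), a call lost on the index scale without DMSO 1 h (adjusted p = 0.0662).

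Among genes that mark blood cells, 6 of 7 matrix genes were higher on the all-gene scale (85.7%, against 17.9% of all tested genes). On the index scale 1 was higher (14.3%, against 2.47%), and the medians were 1.03 (all-gene) and 0.37 (index). Of 13 receptor and clotting genes 5 were higher on the all-gene scale and 5 lower on the index scale. For 7 blood cell transcription factor genes these counts were 3 and 3. The collagen IV gene Col4a1 had 197767 and 202150 scaled counts in DMSO and 202571, 259065 and 311425 in JQ1, so its 1 h library lay just above the higher control and its 4 h library was the highest. On the index scale it was not called (adjusted p = 0.0952, edgeR). Timp, a metalloprotease inhibitor gene, was called under both scalings, from 23.4 and 13.0 to 45.8, 71.4 and 90.6. The clotting protein gene Hml went from 12707 and 13867 to 12718, 21624 and 33001, and was called on the all-gene scale alone (1.45, against 0.76 on the index scale). In the opposite direction Sr-CI, a scavenger receptor gene, went from 20207 and 21384 to 14429, 10925 and 5427 and was called on the index scale alone (adjusted p = 0.0489, edgeR).

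Of 81 RNA processing genes 76 were lower (93.8%, against 64.6% of all tested genes) and 0 higher on the index scale, and 19 were lower (23.5%, near the 18.2% of all genes) and 6 higher (7.41%, against 17.9%) on the all-gene scale. Of 16 small RNA pathway genes 9 were lower under both scalings (56.2%), among them the microRNA processing genes drosha, pasha, Dcr-1 and loqs. drosha had 1461 and 1613 scaled counts in DMSO and 525.2, 495.2 and 508.6 in JQ1, and Dcr-1 had 2496 and 2557 against 1021, 980.2 and 1013. In both the level at 1 h was already that at 4 h. The Argonaute genes AGO2 and piwi were lower on the index scale alone (-0.47 and -0.56). Of the mRNA decay genes, Smg5 and Upf2 of nonsense-mediated decay and tst, the Ski2 helicase, were lower under both scalings (all-gene -0.67, -0.49 and -0.85). Of 20 splicing factor genes only Prp3, a spliceosome gene, was lower under both (-0.70). On the all-gene scale this was 5.0% of that list, against 18.2% of all genes, and 4 of its genes were higher. Of 22 nuclear pore genes 3 were lower under both (13.6%), among them the scaffold gene Nup188 (-0.90), and 1 was higher on the all-gene scale.

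**Figure D3:**
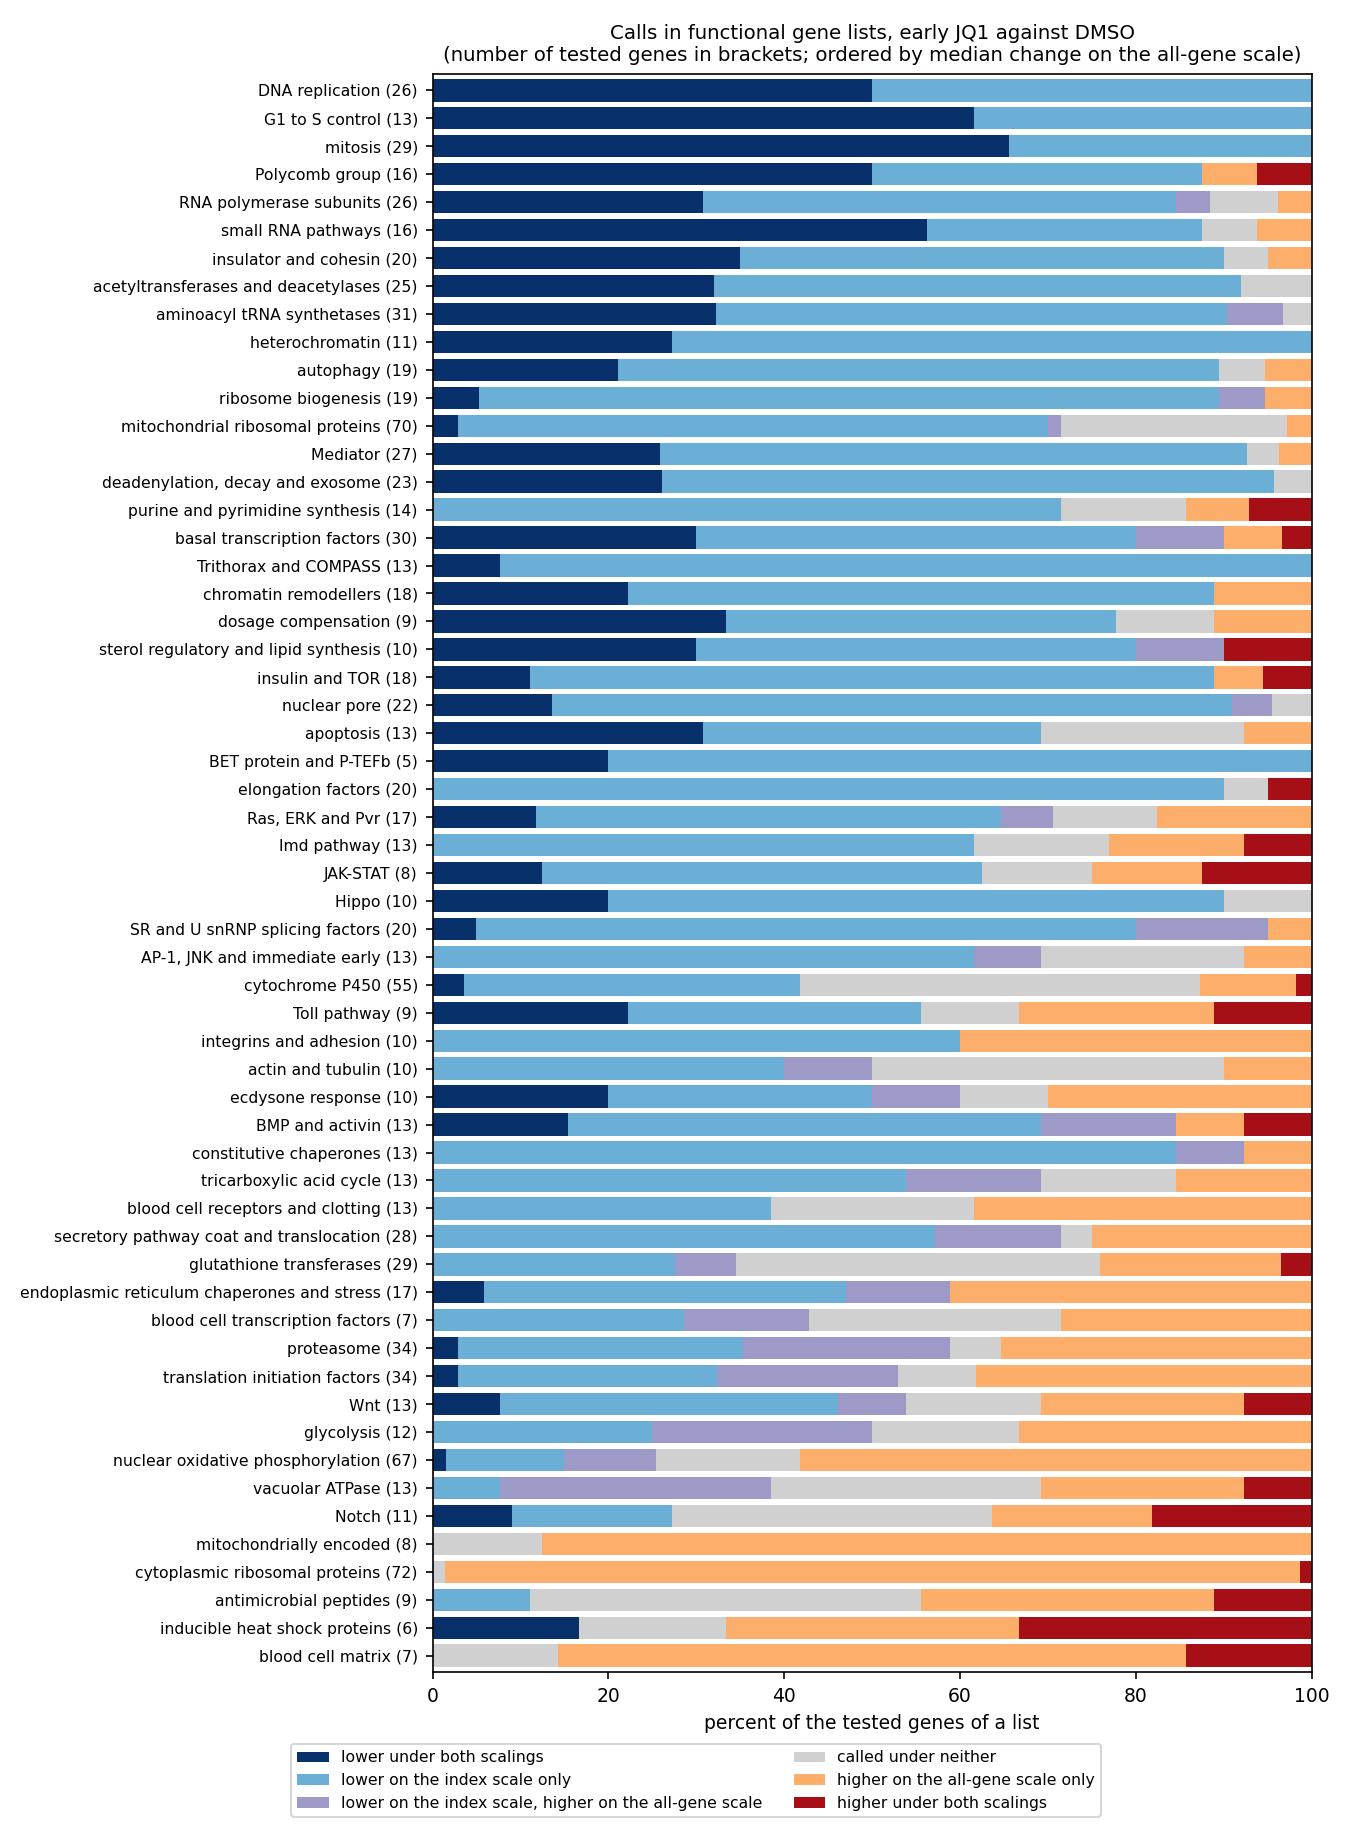
Share of the tested genes of each functional list in each call class (horizontal axis, percent), 1 bar per list with the number of tested genes in brackets, ordered by the median all-gene log2 fold change. DNA replication, G1 to S control and mitosis at the top hold only genes lower on the index scale, with 13 of 26, 8 of 13 and 19 of 29 lower under both (dark blue), and 70 of 72 cytoplasmic ribosomal protein genes near the bottom are higher on the all-gene scale only (orange).

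The trend over 1, 2 and 4 h was fitted within JQ1 as a change per doubling of time. On the all-gene scale 1445 genes fell with time (16.6%) and 1635 rose (18.8%). On the index scale 2517 fell (29.0%) and 443 rose (5.10%). Falling genes made up 46.9% of the calls on the all-gene scale, 59.6% with TMM factors and 85.0% on the index scale. Without JQ1 2 h, 2224 fell and 2628 rose on the all-gene scale. Each time is 1 library, so the trend and differences between single libraries cannot be told apart. Of the 29 mitosis genes 21 fell and 1 rose on the all-gene scale, and 25 fell on the index scale. Of the 26 DNA replication genes 16 fell and 0 rose, with list medians of -0.37, -0.82 and -0.94 at 1, 2 and 4 h. The mitochondrial ribosomal protein genes, which were mostly uncalled against DMSO on the all-gene scale, fell in 32 of 70 cases and rose in 0, with medians of 0.07, -0.20 and -0.41. On the index scale 52 of the 70 fell. Polycomb genes differed from these, as 0 of 16 fell and 5 rose on the all-gene scale. On the index scale 3 fell and 0 rose. Trithorax and COMPASS genes were alike on the all-gene scale, where 0 of 13 fell and 5 rose. Polycomb medians at 1, 2 and 4 h were -0.47, -0.40 and -0.28 on the all-gene scale. On the index scale they were -0.998, -1.04 and -1.06, against -0.54, -0.65 and -0.81 over all tested genes. The reduction was thus present at 1 h, and on the all-gene scale it was smaller at 4 h. Of the 13 Wnt genes 11 rose on the all-gene scale and 2 on the index scale. Of the 7 blood cell matrix genes 6 rose on the all-gene scale and 5 on the index scale.

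**Figure D4:**
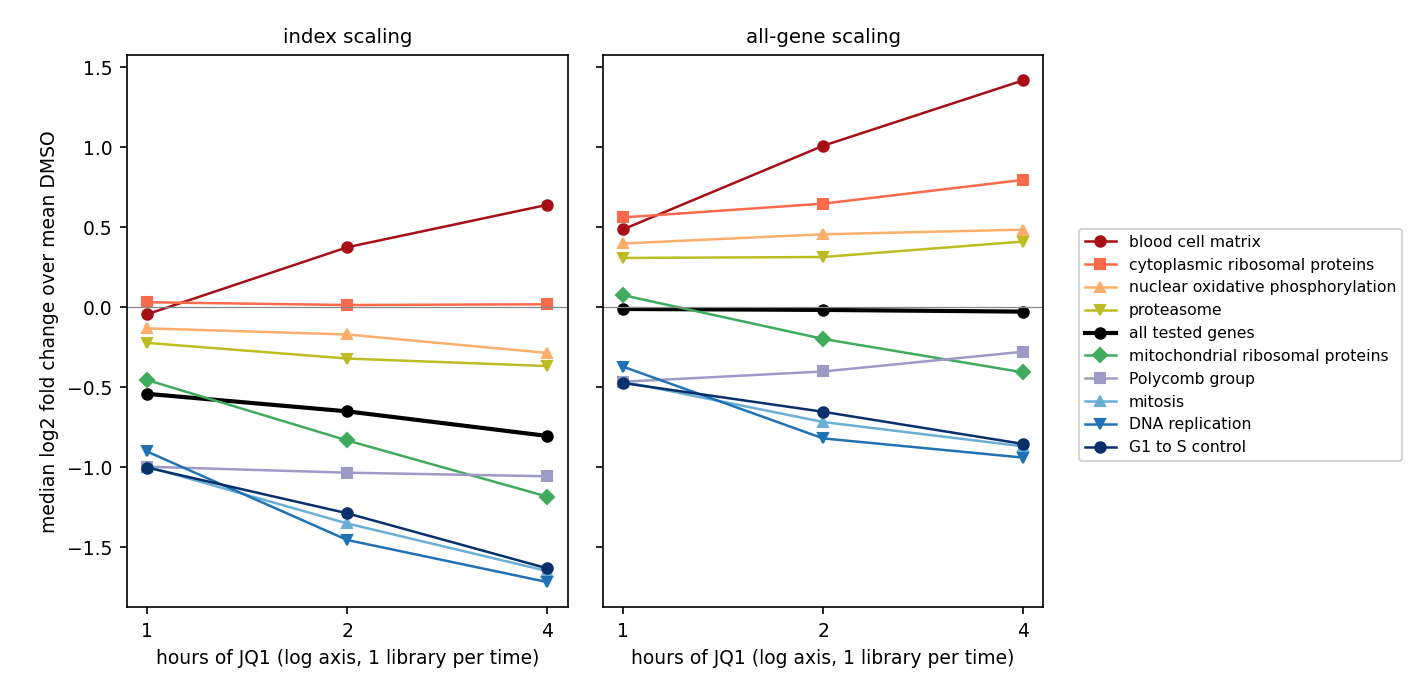
Median log2 fold change of selected lists over the mean of the DMSO libraries (vertical axis) at 1, 2 and 4 h of JQ1 (log axis, 1 library per time), on the index scale (left) and the all-gene scale (right). DNA replication goes from -0.37 to -0.94 and mitochondrial ribosomal proteins from 0.07 to -0.41 on the all-gene scale, cytoplasmic ribosomal proteins stay near 0 on the index scale, and blood cell matrix has the highest median at 4 h under both.

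Alg13, Bhmt and CG4238 were among the 4 genes with the steepest fall. Bhmt (FBgn0032727), named for a methyltransferase of homocysteine, had 1133 and 1202 scaled counts in DMSO and 537.6, 186.0 and 43.5 after 1, 2 and 4 h of JQ1. It fell by 1.62 ± 0.10 log2 units per doubling of time (SE, all-gene scale, adjusted p = 0.000274, edgeR), and it was not called in the comparison of the pooled JQ1 libraries with DMSO. Alg13 and CG4238 both reached 6.47 scaled counts at 4 h, from 158.0 and 145.7 and from 165.8 and 196.4 in DMSO. The steepest rises were CG31145, fz, Rh7 and CG2065. fz (FBgn0001085), the Wnt and planar polarity receptor gene Frizzled, had 55.6 and 72.8 in DMSO, overlapped the controls at 1 h with 53.7, and had 154.6 and 249.7 at 2 and 4 h. Rh7 (FBgn0036260), an opsin gene, had 60.1 and 72.8 in DMSO and 79.2, 178.4 and 332.9 in JQ1. CG2065 (FBgn0033204) had 2103 and 2073 in DMSO and 1699, 1898 and 6745 in JQ1, so its rise rests on the 4 h library alone. Without that library its index log2 fold change was -0.21 in place of 0.72.

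**Figure D5:**
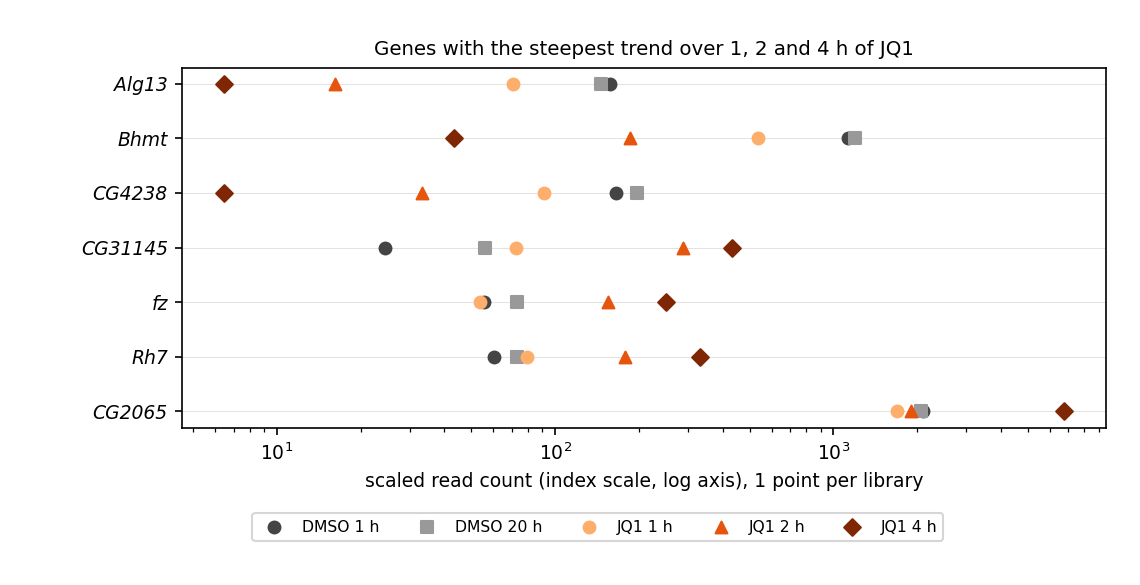
Scaled read counts on the index scale (log axis) of 3 of the 4 genes with the steepest fall (Alg13, Bhmt, CG4238) and the 4 with the steepest rise (CG31145, fz, Rh7, CG2065) over 1, 2 and 4 h of JQ1, 1 point per library. In the falling genes the JQ1 points are spread evenly to the left of DMSO, for Bhmt from 537.6 to 43.5, while CG2065 is near DMSO at 1 and 2 h and at 6745 at 4 h.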

How the data were processed

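RNA-seq libraries of S2-DRSC cells were deposited as read counts per gene. According to the study's methods, the authors made polyadenylated libraries with the TruSeq kit, aligned single-end reads with TopHat to the Ensembl release 64 genome (assembly release 5) and counted uniquely aligned reads with HTSeq-count. Tool versions and strand use are not given in the sources used here, so reads of overlapping and antisense genes cannot be told apart. The deposited counts were not normalised. The 5 lines that name no gene were left out, which held between 24.4% and 27.3% of the records in the libraries compared.

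Symbols for 13524 of 14869 identifiers (91.0%) came from Ensembl release 115 (assembly release 6). Chromosome names and numbers of exon blocks were taken from the same annotation, by identifier. JQ1 (3 libraries) was set against DMSO (2 libraries) in edgeR 4.0.16 (R 4.3.3), by the quasi-likelihood test, two-sided, with Benjamini-Hochberg adjustment over all genes averaging at least 10 scaled counts and a threshold of 0.05. Index factors were median ratios over the 100 genes most abundant in DMSO, and all-gene factors were median ratios over all genes. Standard errors were the log2 fold change over the root of F. Values per time used a pseudocount of 1. The time trend was fitted on log2 hours within JQ1. The fit was tested on simulated data. Alternatives were DESeq2 1.42.0, TMM, total-count and 500-gene index factors, other filters, hours as a covariate and leaving out each library.

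Genes were named by rule: the 8 lowest and 8 highest index log2 fold changes among genes called under both scalings averaging 50 scaled counts or more in which the JQ1 and DMSO values did not overlap, the 2 genes of each list with the smallest all-gene adjusted p among those called under both scalings in 1 direction at that level, the 5 genes fs(1)h, ash1, trx, Hexim and Psc, and the 4 steepest called time slopes in each direction at that level. Other genes named as members of a list were chosen after their values were seen. The comparison, the 57 gene lists and the rule were chosen with earlier results of these data known, and 104 listed symbols were not matched. Not every gene that meets the rule is reported here.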

Additional observations from a re-analysis of the deposited data

Results flagged for a closer look

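The JQ1 library of 20 h stood outside the comparison. In it the 100 index genes took 33.0% of gene reads, above the 28.5% and 29.0% of the DMSO libraries and below the 34.1% to 36.3% of the early JQ1 libraries. A single library was read at 20 h, and the difference was not tested.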

How the results depend on the processing

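No paired analysis was possible because the labels carry no replicate numbers and only the 1 h duration occurs in both groups. Both the scaling and single libraries moved the counts. Total counts gave 2957 lower and 687 higher genes in place of 5615 and 215 on the index scale, the all-gene scale 1580 and 1560, and a 500-gene index 472 higher genes. With hours as a covariate the index scale gave 394 higher genes, and the all-gene scale 3116 lower and 2539 higher. Leaving out each library in turn gave 2587 to 6079 lower and 56 to 386 higher genes on the index scale, and 0 to 2561 lower and 0 to 2268 higher on the all-gene scale, where edgeR made 0 calls without DMSO 1 h, DMSO 20 h or JQ1 2 h, although 1229, 1257 and 1519 lower and 1194, 1201 and 1531 higher genes had an unadjusted p under 0.05. DESeq2 then gave 492, 506 and 940 lower and 510, 442 and 827 higher genes. Trends on the index scale numbered 2517 falling and 443 rising, and leaving out each library gave 1164 to 2224 falling and 1185 to 2628 rising on the all-gene scale. fs(1)h reversed to 0.0846 on the all-gene scale and 0.0492 with TMM, and trx to 0.16 and 0.13. CG2065 reversed to -0.21 without JQ1 4 h and was 1.046 without JQ1 1 h. The causes of these changes were not tested. In edgeR, 68 of 74 named genes called lower and 7 of 21 called higher on the index scale remained called without any 1 library. Those named genes were chosen largely by extreme fold change or small adjusted p, so their retention does not describe the calls as a whole. The 2 controls of unequal duration, the 3 pooled treatment times and the lack of an external standard limit what the counts show. Genes near 10 scaled counts have wide counting error.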
